A study of Mus musculus with 6 samples.

Results

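Chemokines and their receptors were followed in mouse spinal cord 3 days after a crush injury. The members were taken by gene name: ligands whose symbols are Ccl, Cxcl, Xcl or Cx3cl plus a number, and receptors named Ccr, Cxcr, Xcr or Cx3cr plus a number, together with Ccrl2 and the atypical receptors Ackr1 to Ackr4. This gave 62 genes of the 36629 in the deposited tables, 38 ligands and 24 receptors. A further 2 rows with such names, Ccl19-ps1 and Ccl19-ps3, are pseudogenes and were counted apart. RNA sequencing of spinal cord tissue gave 3 spinal cord injury (SCI) libraries and 3 sham libraries. SCI animals had a laminectomy at T9 and T10 and then a crush of the exposed cord for 5 seconds by a vascular clip of 60 g force. Sham animals had the laminectomy alone, so both groups carry the surgical wound. All were C57/BL6 mice 3 to 5 weeks old without any genetic change named in the labels, and the T8 to T12 segments were dissected from both groups. The labels do not say whether each library came from 1 animal or a pool, so the p-values below measure only the spread between these libraries, which may be technical.

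Chemokines are small secreted proteins that direct the migration of leukocytes along gradients, and they act on receptors coupled to inhibitory G proteins. CC chemokines act largely on monocytes, macrophages and lymphocytes, the CXC chemokines with an ELR motif act on neutrophils, and CX3CL1 is a membrane-anchored ligand made by neurons whose receptor in the cord sits on microglia. Atypical receptors bind chemokines without G-protein signalling and remove or transport them.

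Values are FPKM (fragments scaled to transcript length and to the mapped fragments of the library), the deposited unit. The sum of FPKM lay between 716215 and 734791 over the 6 libraries, and 16774 to 17202 genes reached 1 FPKM in each. The number of reads behind each value is unknown. SCI replicate 2 stood apart in haemoglobin transcripts, which took 6.16% of its summed FPKM, against 0.66% and 0.21% in the other SCI libraries and 0.11% to 0.13% in sham libraries. SCI replicate 3 stood apart in skeletal muscle markers, with a summed level of 412 FPKM against 44.9 and 10.9 FPKM in the other SCI libraries and 17.4 to 107 FPKM in sham libraries. It also listed the sensory ganglion gene Scn10a at 6.60 FPKM, which the other 5 libraries list at 0. Changes were tested with limma on log2(FPKM + 1) over all 17435 genes with at least 1 FPKM in 3 or more libraries, and a gene was called at an adjusted p under 0.05 (Benjamini-Hochberg over all genes tested). A log2 change is SCI minus sham on this scale, where low genes change less than in FPKM.

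Of the 62 members, 37 reached this level and were tested. Among 27 tested ligands, 16 were higher in SCI cord, 3 were lower and 8 did not pass the threshold. Among 10 tested receptors, 8 were higher, none was lower and 2 did not pass. At an unadjusted p under 0.05 the receptor count was the same, 8 higher and 0 lower. Of all genes tested, 26.7% were called higher and 30.8% lower, 57.5% in all. The median log2 change was 2.03 over the tested ligands and 1.95 over the tested receptors, beside −0.08 over all genes tested. These counts describe the tested members and are not support for a change of the family. In all, 12 ligands and 4 receptors reached 1 FPKM in all 3 SCI libraries but not in all 3 sham libraries, and each of those had to be high in SCI to be tested. The members at 1 FPKM or more in all 3 sham libraries were 12 ligands, of which 4 were called higher and 3 lower, and 5 receptors, of which 4 were called higher and none lower. Ccl27b, among the 3 lower, reached 1 FPKM in sham libraries alone and so had to be high there to be tested. SCI and sham values did not overlap for 24 tested members with SCI above and 3 with SCI below. Non-overlap of these kinds was found for 30.7% and 36.9% of all genes tested. With SCI replicate 2 left out there were 16 ligands higher, 3 lower and 8 receptors higher. With SCI replicate 3 left out, 17 ligands were higher, 3 lower and 8 receptors higher.

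**Figure D1:**
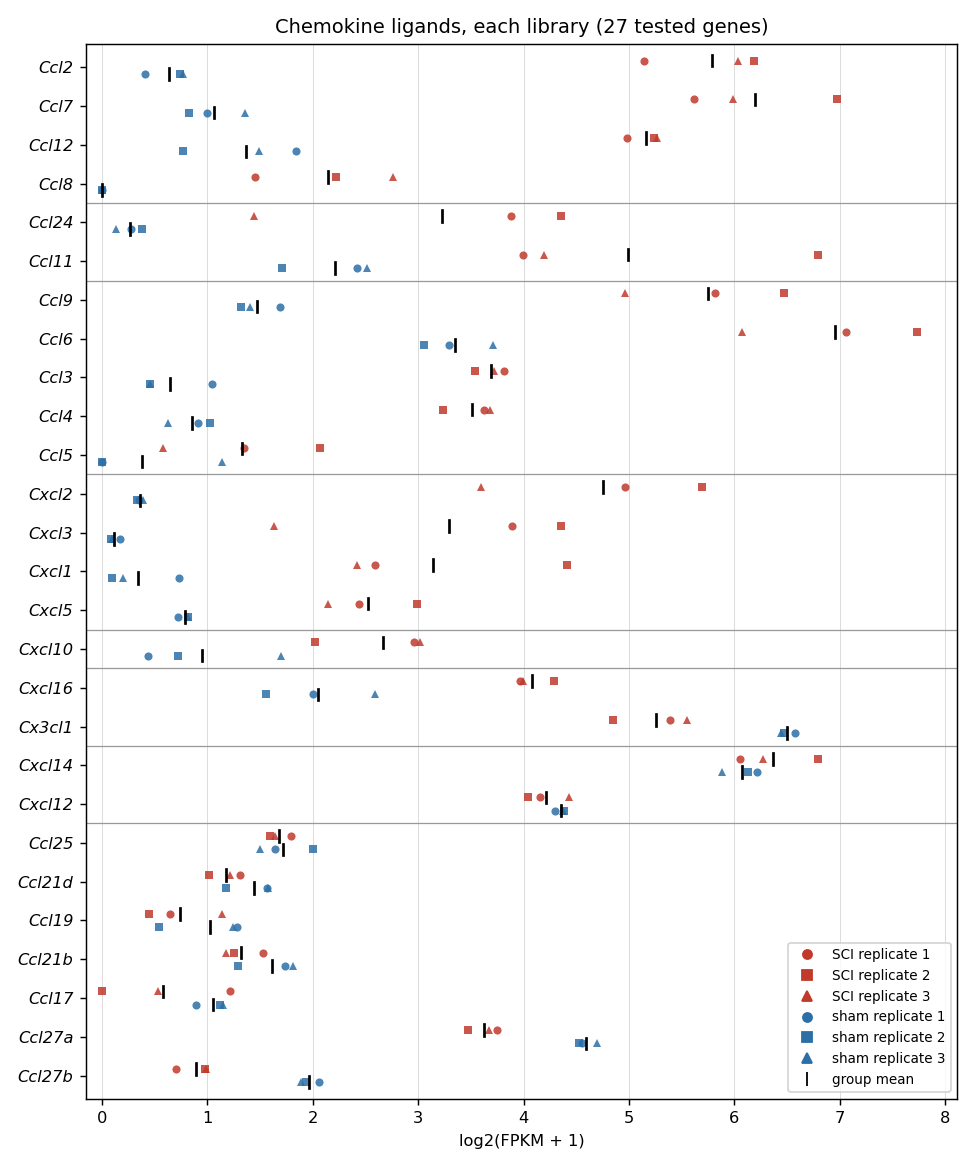
Levels of the 27 tested ligands in each library on a log2(FPKM + 1) axis, SCI in red and sham in blue, with bars at the group means. The 16 ligands called higher have all 3 SCI points above all 3 sham points, and Cx3cl1, Ccl27a and Ccl27b have them below.

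Ccl2 and Ccl7 had the largest log2 changes among tested CC chemokines. Ccl2 (ENSMUSG00000035385, chr11:82035571-82037453, plus strand), a principal ligand of Ccr2 that draws monocytes from blood, had 34.4, 71.9 and 64.6 FPKM in SCI libraries, against 0.33, 0.67 and 0.70 FPKM in sham libraries. Ccl7 (ENSMUSG00000035373, chr11:82045712-82047525, plus strand), which acts on Ccr2 and Ccr1, had 48.0, 125 and 62.6 FPKM in SCI libraries, against 1.00, 0.77 and 1.56 FPKM in sham libraries. For both genes the groups stood far apart, with SCI replicate 2 the highest library. The mean of Ccl2 was 57.0 ± 19.9 FPKM in SCI and 0.567 ± 0.206 FPKM in sham cord (SD, n = 3 each), 101-fold higher (log2 change 5.15, SE 0.27, adjusted p = 1.8e-05, limma). The mean of Ccl7 was 78.5 ± 40.9 FPKM in SCI and 1.11 ± 0.406 FPKM in sham cord (SD, n = 3 each), 70.8-fold higher (log2 change 5.13, SE 0.33, adjusted p = 3.9e-05, limma). Markers of monocytes and macrophages were also higher in SCI cord: without chemokine genes, the summed level of 9 such markers was 1070 to 1830 FPKM in SCI libraries and 125 to 172 FPKM in sham libraries. Most of this sum was 1 gene, Lyz2, at 910 to 1610 FPKM in SCI libraries and 91.9 to 127 FPKM in sham libraries. The part of these markers in any chemokine result was not tested. In bulk tissue, more or fewer cells of a type and more or less RNA per cell cannot be told apart.

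Ccl12, a mouse ligand of Ccr2, had 30.5, 36.8 and 37.4 FPKM in SCI libraries, against 2.59, 0.70 and 1.81 FPKM in sham libraries. Its SCI libraries lay close together, with a mean 20.5-fold that of sham (log2 change 3.79, SE 0.26, adjusted p = 4.8e-05, limma). Ccl8, which in mouse acts on Ccr8, had 1.73, 3.65 and 5.78 FPKM in SCI libraries and is listed at 0 in all 3 sham libraries. It passed the threshold (adjusted p = 0.0012, limma), but the size of its fitted change depends on the pseudocount: 2.14 with 1 and 5.10 with 0.1. Ccr8 is listed at 0 in all 6 libraries.

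Ccr2 itself (ENSMUSG00000049103, chr9:124101950-124113557, plus strand), the receptor that marks inflammatory monocytes, had 4.59, 10.4 and 6.24 FPKM in SCI libraries, against 0.71, 0.21 and 0.45 FPKM in sham libraries. All SCI libraries were above all sham libraries, by 15.5-fold in the means (log2 change 2.42, SE 0.27, adjusted p = 3.9e-04, limma). Summed over Ccl2, Ccl7 and Ccl12, its ligands stood at 113, 234 and 164 FPKM in SCI libraries, against 3.92, 2.14 and 4.07 FPKM in sham libraries. SCI replicate 2 was the highest library for the receptor and for the sum.

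The macrophage-derived CC ligands of Ccr1 were among the most abundant ligands of SCI cord. Ccl6, a mouse CC chemokine without a human counterpart that acts on Ccr1, had the highest mean level of the 38 ligands in SCI cord, although below Cxcl14 in SCI replicate 3, with 133, 211 and 66.1 FPKM in SCI libraries, against 8.82, 7.29 and 12.1 FPKM in sham libraries. Ccl9, a related Ccr1 ligand made by macrophages, had 55.3, 87.7 and 30.2 FPKM in SCI libraries, against 2.23, 1.49 and 1.65 FPKM in sham libraries. Both were highest in SCI replicate 2 and lowest among SCI libraries in replicate 3, without overlap between the groups. Ccl6 was 14.6-fold higher in the means (log2 change 3.60, SE 0.39, adjusted p = 3.4e-04, limma) and Ccl9 was 32.2-fold higher (log2 change 4.28, SE 0.34, adjusted p = 9.2e-05, limma).

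Ccl3 and Ccl4, the macrophage inflammatory proteins, of which Ccl3 acts on Ccr1, varied less among SCI libraries. Ccl3 had 13.1, 10.7 and 12.2 FPKM in SCI libraries, against 1.06, 0.37 and 0.37 FPKM in sham libraries. Ccl4 had 11.3, 8.43 and 11.8 FPKM in SCI libraries, against 0.88, 1.03 and 0.54 FPKM in sham libraries. In both, SCI replicate 2 was the lowest of the SCI libraries, the opposite of most other members. The log2 change was 3.04 (SE 0.18, adjusted p = 3.1e-05, limma) for Ccl3 and 2.66 (SE 0.17, adjusted p = 3.5e-05, limma) for Ccl4. Ccl5, a further ligand of Ccr1 and Ccr3 made by T cells among others, had 1.54, 3.21 and 0.49 FPKM in SCI libraries, against 0, 0 and 1.21 FPKM in sham libraries. The groups overlapped and it did not pass (log2 change 0.95, SE 0.45, adjusted p = 0.11, limma). Without SCI replicate 3 it passed, with a log2 change of 1.33 (adjusted p = 0.034, limma), as it did without sham replicate 3 (log2 change 1.33, adjusted p = 0.042, limma).

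Ccr1, a receptor of monocytes, macrophages and neutrophils, had 23.0, 50.5 and 23.3 FPKM in SCI libraries, against 0.64, 0.43 and 1.09 FPKM in sham libraries. The groups did not overlap, and SCI replicate 2 was the highest library. Ccr1 averaged 32.3 ± 15.8 FPKM in SCI and 0.720 ± 0.337 FPKM in sham cord (SD, n = 3 each), 44.8-fold higher (log2 change 4.19, SE 0.31, adjusted p = 6.6e-05, limma).

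The neutrophil-attracting CXC ligands Cxcl1, Cxcl2, Cxcl3 and Cxcl5, which share the receptor Cxcr2, were all called higher. Cxcl2 had 30.2, 50.9 and 11.1 FPKM in SCI libraries, against 0.28, 0.26 and 0.31 FPKM in sham libraries. Cxcl3 had 13.8, 19.4 and 2.11 FPKM in SCI libraries, against 0.13, 0.06 and 0.07 FPKM in sham libraries. Cxcl1 had 5.04, 20.3 and 4.37 FPKM in SCI libraries, against 0.66, 0.07 and 0.15 FPKM in sham libraries. In each of these genes every SCI library was above every sham library, replicate 2 was the highest and replicate 3 the lowest of the SCI libraries. Cxcl2 averaged 30.7 ± 19.9 FPKM in SCI and 0.283 ± 0.0252 FPKM in sham cord (SD, n = 3 each), 108-fold higher (log2 change 4.39, SE 0.47, adjusted p = 3.1e-04, limma). Cxcl3 was 136-fold higher in the means (log2 change 3.17, SE 0.63, adjusted p = 0.0045, limma), with a log2 change of 4.0 without SCI replicate 3 and 2.64 without SCI replicate 2. Cxcl1 was 33.7-fold higher (log2 change 2.80, SE 0.51, adjusted p = 0.0029, limma), with a log2 change of 2.17 without SCI replicate 2. Cxcl5 had 4.42, 6.95 and 3.42 FPKM in SCI libraries, against 0.65, 0.76 and 0.76 FPKM in sham libraries, and its groups did not overlap (log2 change 1.74, SE 0.22, adjusted p = 6.1e-04, limma).

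Cxcr2, the receptor by which neutrophils sense these ligands, had 4.64, 12.7 and 2.38 FPKM in SCI libraries, against 0.11, 0.04 and 0.11 FPKM in sham libraries. It was 75.9-fold higher in the means (log2 change 2.56, SE 0.45, adjusted p = 0.0028, limma), with a log2 change of 2.01 when SCI replicate 2 was left out and 3.02 when SCI replicate 3 was. Its order across the SCI libraries, replicate 2 above 1 above 3, was that of its summed ligands at 53.5, 97.5 and 21 FPKM. The summed ligands stood at 1.72, 1.15 and 1.29 FPKM in sham libraries. Neutrophil markers other than Cxcr2 had the same order, with a summed level of 300, 715 and 157 FPKM in SCI libraries and 51.7, 26.0 and 22.0 FPKM in sham libraries. Their part in the result was not tested. Cxcr1, the other ELR chemokine receptor, was under the level tested, with 0.18, 1.00 and 0 FPKM in SCI libraries and at most 0.05 FPKM in sham libraries.

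The promoters of Cxcl1, Cxcl2 and Cxcl3 are shown because each window holds the same match to the NF-kB consensus close to the start of transcription. They are RefSeq windows (build GRCm38.p6) of 250 bases before to 50 after each gene's start, written 5′ to 3′ on the gene's strand, with matches to the NF-kB consensus (either strand) and to TATAAA (either strand) in capitals.
Cxcl1, chr5:90890995-90891294, plus strand: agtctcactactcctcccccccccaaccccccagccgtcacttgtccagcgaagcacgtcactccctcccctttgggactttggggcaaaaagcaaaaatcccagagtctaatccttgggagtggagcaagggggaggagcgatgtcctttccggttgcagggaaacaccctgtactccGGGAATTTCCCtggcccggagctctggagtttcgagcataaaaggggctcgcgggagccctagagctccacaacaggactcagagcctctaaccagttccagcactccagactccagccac
Cxcl2, chr5:90903649-90903948, plus strand: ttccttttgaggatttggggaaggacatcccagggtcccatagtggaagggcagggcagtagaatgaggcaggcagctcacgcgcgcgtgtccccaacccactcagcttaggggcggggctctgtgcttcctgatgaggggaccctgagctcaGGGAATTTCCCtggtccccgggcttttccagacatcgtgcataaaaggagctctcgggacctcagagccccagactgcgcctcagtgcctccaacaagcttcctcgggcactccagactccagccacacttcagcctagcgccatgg
Cxcl3, chr5:90785851-90786150, plus strand: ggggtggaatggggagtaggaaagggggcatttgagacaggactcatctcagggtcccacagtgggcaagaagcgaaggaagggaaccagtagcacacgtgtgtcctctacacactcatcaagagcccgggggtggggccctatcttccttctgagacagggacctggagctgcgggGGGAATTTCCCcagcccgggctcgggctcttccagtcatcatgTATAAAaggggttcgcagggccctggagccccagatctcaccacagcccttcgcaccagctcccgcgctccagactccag
GGGAATTTCC stood 71 bases before the start in Cxcl1, 97 in Cxcl2 and 73 in Cxcl3, and each overlaps a match on the opposite strand by 9 bases. Cxcl3 also held TATAAA at 30 bases before its start. Of the 62 members, 48 had such a window, and Ccl2 and Ccl7 were among those without one. The NF-kB consensus was in the windows of 5 of the 9 higher ligands that had one (Cxcl1, Cxcl2, Cxcl3, Cxcl10 and Ccl9), of 2 of the 7 higher receptors (Ccr1 and Ccrl2), and of 1 of the 3 lower ligands (Ccl27a). Of the 7 ligands with a window that did not pass, 0 held it. Among members not tested it was in 2 of 9 ligands (Ccl1 and Ccl20) and 3 of 12 receptors (Ackr2, Ccr3 and Ccr6). It was in 8.46% of all 32851 windows, and TATAAA was in 13.6%. These shares are per window, while a member was counted if any of its windows held a match, so the units differ. Ccrl2, Ccl27a and Ccr6 have several windows each, and not all of them held the consensus. A match is a description of these letters and shows no binding.

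The eotaxins Ccl11 and Ccl24, which attract eosinophils through Ccr3, were higher but uneven. Ccl11 had 15.0, 110.0 and 17.3 FPKM in SCI libraries, against 4.37, 2.27 and 4.71 FPKM in sham libraries. Ccl24, made by macrophages of the tissue-repair type, had 13.8, 19.4 and 1.71 FPKM in SCI libraries, against 0.21, 0.30 and 0.10 FPKM in sham libraries. Replicate 2 held most of the SCI level of Ccl11, and replicate 3 was far below the other SCI libraries for Ccl24, although neither gene overlapped between groups. The log2 change of Ccl11 was 2.78 (SE 0.70, adjusted p = 0.012, limma) and 1.88 without SCI replicate 2. That of Ccl24 was 2.96 (SE 0.68, adjusted p = 0.0082, limma), 2.40 without SCI replicate 2 and 3.86 without SCI replicate 3. Markers of pericytes and fibroblasts, cells known to make Ccl11, summed to 327, 577 and 370 FPKM in SCI libraries and 142 to 189 FPKM in sham libraries. Of these 8 markers, 6 were called higher and 0 lower, beside 26.7% and 30.8% of all genes tested. Rgs5 (log2 change −0.04) and Kcnj8 (0.36) did not pass. The part of these markers in the result was not tested. Ccr3 stood at 0.04 to 0.13 FPKM in SCI libraries and at most 0.05 FPKM in sham libraries, while its listed ligands summed to 79.7, 258 and 82.8 FPKM in SCI libraries and 6.39, 4.24 and 8.78 FPKM in sham libraries.

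Of the interferon-induced ligands of Cxcr3, which draw activated T cells and natural killer cells, Cxcl10 alone was tested. Cxcl10 had 6.77, 3.05 and 7.12 FPKM in SCI libraries, against 0.35, 0.65 and 2.25 FPKM in sham libraries. Here SCI replicate 2 was the lowest SCI library, still above the highest sham library (log2 change 1.71, SE 0.39, adjusted p = 0.0077, limma). Its interval overlaps Art3 on the opposite strand, which had 4.92, 2.69 and 5.42 FPKM in SCI libraries and 17, 9.64 and 12.8 FPKM in sham libraries, and whether counting used strand is not given in the sources used here. Its chromosome 5 neighbours were low in both groups: Cxcl9 had 0.06 to 0.21 FPKM in SCI and 0 to 1.07 FPKM in sham libraries. Cxcl11 had 0.11 to 0.23 FPKM in SCI and 0.09 to 1.07 FPKM in sham libraries. Cxcr3 had 0.28 to 0.38 FPKM in SCI and 0.08 to 0.27 FPKM in sham libraries. The interferon gene Ifng is listed at 0 in all 6 libraries, and of the 8 T cell markers listed, Cd3d, Cd3e, Cd3g, Cd4 and Cd8a were each under 0.5 FPKM throughout. The other 3 were tested and did not pass: Trac had 2.97 to 4.54 FPKM in SCI and 3.50 to 5.85 FPKM in sham libraries, Trbc2 had 2.95 to 4.20 FPKM in SCI and 1.14 to 3.25 FPKM in sham libraries, and Lck had 0.61 to 1.61 FPKM in SCI and 0.46 to 1.27 FPKM in sham libraries. The Cxcl10 promoter is shown because its window holds both GAAANNGAA, the core of the interferon-stimulated response element (either strand), at 213 bases before the start, and the NF-kB consensus at 159 and, as overlapping matches, at 104 and 103 bases before it, all in capitals.
Cxcl10, chr5:92348840-92349139, minus strand: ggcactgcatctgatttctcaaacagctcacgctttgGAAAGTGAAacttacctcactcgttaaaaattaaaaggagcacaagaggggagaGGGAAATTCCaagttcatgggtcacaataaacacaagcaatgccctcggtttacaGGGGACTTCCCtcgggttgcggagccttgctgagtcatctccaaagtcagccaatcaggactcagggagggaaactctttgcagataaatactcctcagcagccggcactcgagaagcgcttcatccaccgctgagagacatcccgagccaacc
GAAANNGAA was in 8.56% of all windows.

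The RNA levels of fractalkine and of its receptor changed in opposite directions. Cx3cl1 (ENSMUSG00000031778, chr8:94772009-94782427, plus strand), the membrane-anchored ligand made by neurons, had 40.9, 27.8 and 45.8 FPKM in SCI libraries, against 94.2, 88.0 and 85.9 FPKM in sham libraries. Cx3cr1 (ENSMUSG00000052336), its receptor on microglia and monocytes, had 51.0, 64.7 and 57.0 FPKM in SCI libraries, against 19.9, 18.8 and 18.5 FPKM in sham libraries. Neither gene overlapped between the groups, the ligand standing below the receptor in every SCI library and above it in every sham library. Cx3cl1 averaged 38.1 ± 9.31 FPKM in SCI and 89.3 ± 4.32 FPKM in sham cord (SD, n = 3 each), and fell by 1.24 on the log2 scale (SE 0.17, adjusted p = 9.9e-04, limma). Cx3cr1 averaged 57.6 ± 6.85 FPKM in SCI and 19.0 ± 0.715 FPKM in sham cord (SD, n = 3 each), 3.02-fold higher (log2 change 1.54, SE 0.10, adjusted p = 3.8e-05, limma). The file's interval for Cx3cr1 overlaps other genes, among them Csrnp1 on the same strand, which had 27.3, 27.6 and 21.2 FPKM in SCI libraries and 4.81, 3.20 and 4.94 FPKM in sham libraries, and reads shared between them cannot be told apart. Neuronal markers summed to 1430, 1060 and 1800 FPKM in SCI libraries, against 3420, 4050 and 3410 FPKM in sham libraries, and microglial markers other than Cx3cr1 to 588, 737 and 736 FPKM in SCI libraries, against 176, 183 and 195 FPKM in sham libraries. SCI replicate 2 was the lowest SCI library for Cx3cl1 and for the neuronal markers. Their part in these results was not tested.

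The Cx3cl1 promoter is shown beside the 4 printed above because this ligand fell, with its TATAAA match in capitals, 6 bases before the RefSeq start. It held no match to the NF-kB consensus or to GAAANNGAA on either strand, as was also so for Ccl6, Ccl8 and Ccl12 among the ligands called higher.
Cx3cl1, chr8:94771930-94772229, plus strand: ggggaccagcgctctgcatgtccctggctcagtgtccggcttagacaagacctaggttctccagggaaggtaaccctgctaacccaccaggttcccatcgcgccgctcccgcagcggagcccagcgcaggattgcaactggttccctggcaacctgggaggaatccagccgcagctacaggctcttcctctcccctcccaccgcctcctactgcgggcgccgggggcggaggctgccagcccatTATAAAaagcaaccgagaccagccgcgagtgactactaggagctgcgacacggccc
Cx3cl1 was the leading ligand of sham cord and a small share of SCI cord. It made up 7.1%, 2.8% and 8.8% of the summed ligand level in SCI libraries, against 37.6%, 38.3% and 36.1% in sham libraries. The sum over all 38 ligands was 580, 979 and 517 FPKM in SCI libraries, against 250, 230 and 238 FPKM in sham libraries. The 16 ligands called higher accounted for 431, 804 and 353 FPKM of the SCI sums and 26.6, 18.6 and 32.1 FPKM of the sham sums.

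Adam10, a protease that sheds Cx3cl1 and Cxcl16 from the cell surface, averaged 79.8 ± 6.64 FPKM in SCI and 47.2 ± 5.17 FPKM in sham cord (SD, n = 3 each; log2 change 0.75, called higher by limma). Cxcl16, the other membrane-anchored chemokine, had 14.6, 18.5 and 14.9 FPKM in SCI libraries, against 3.00, 1.95 and 5.02 FPKM in sham libraries. Unlike Cx3cl1 it was higher in every SCI library (log2 change 2.03, SE 0.25, adjusted p = 5.6e-04, limma). Its receptor Cxcr6, carried by T cells, was low in both groups at 0.29 to 0.45 FPKM in SCI and 0.14 to 0.48 FPKM in sham libraries.

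The homeostatic ligand Cxcl12, which retains leukocytes and guides progenitors, had 16.8, 15.4 and 20.6 FPKM in SCI libraries, against 18.6, 19.9 and 19.8 FPKM in sham libraries. The groups overlapped and it did not pass (log2 change −0.14, adjusted p = 0.31, limma). Both of its receptors were called higher. Cxcr4, the signalling receptor found on most leukocytes, had 19.3, 36.2 and 21.8 FPKM in SCI libraries, against 3.76, 2.26 and 2.61 FPKM in sham libraries. Ackr3, the atypical receptor that removes Cxcl12, had 17.9, 19.6 and 11.4 FPKM in SCI libraries, against 6.62, 5.78 and 6.12 FPKM in sham libraries. Every SCI library was above every sham library for both receptors, with a log2 change of 2.75 (SE 0.25, adjusted p = 1.5e-04, limma) for Cxcr4 and 1.24 (SE 0.19, adjusted p = 0.0014, limma) for Ackr3. Cxcl14, a constitutively made chemokine, was abundant in both groups, with 65.5, 109.7 and 76.1 FPKM in SCI libraries, against 73.3, 68.9 and 58.0 FPKM in sham libraries, and did not pass (log2 change 0.30, adjusted p = 0.21, limma).

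**Figure D2:**
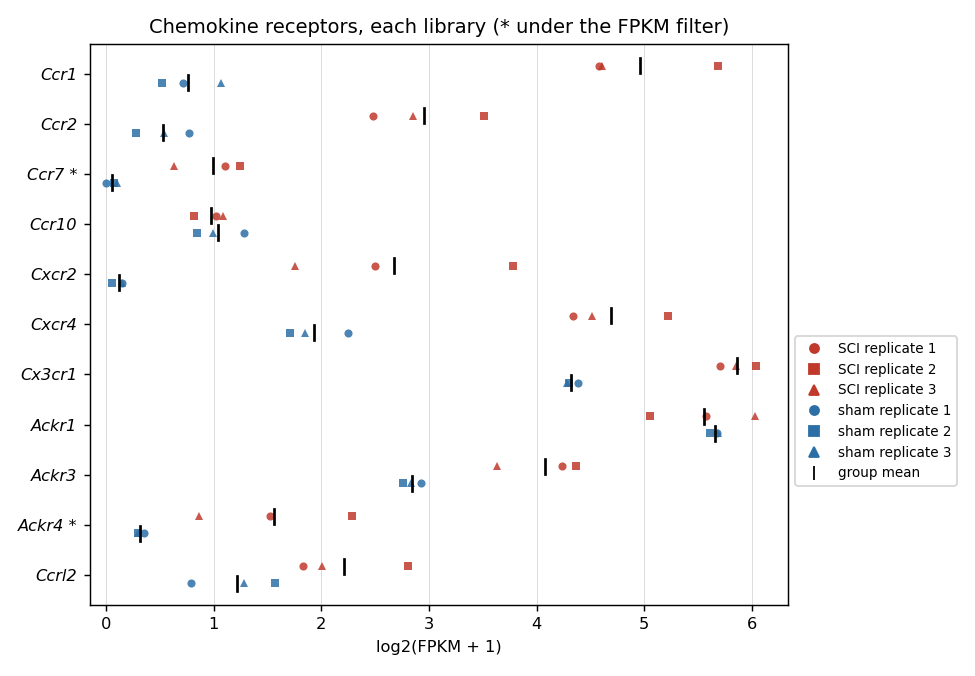
Levels of tested receptors, and of Ccr7 and Ackr4 (starred, under the level tested), in each library on a log2(FPKM + 1) axis, SCI in red and sham in blue, with bars at the group means. SCI points lie above sham points without overlap in the receptors called higher, and the groups overlap for Ackr1 and Ccr10.

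Lower in SCI cord beside Cx3cl1 were both Ccl27 genes, whose product acts on Ccr10. Ccl27a had 12.4, 10.1 and 11.7 FPKM in SCI libraries, against 22.6, 22.1 and 24.9 FPKM in sham libraries. Ccl27b had 0.63, 0.97 and 0.98 FPKM in SCI libraries, against 3.18, 2.82 and 2.71 FPKM in sham libraries. Neither overlapped between groups (Ccl27a fell by 0.97 on the log2 scale, SE 0.10, adjusted p = 2.8e-04, and Ccl27b fell by 1.07, SE 0.14, adjusted p = 8.1e-04, limma). They are near-identical copies on chromosome 4, so the split of reads between them is uncertain. Ccl27a also overlaps Il11ra1 on the opposite strand, which had 16.7, 15.3 and 18.1 FPKM in SCI libraries and 17.5, 15.4 and 17.2 FPKM in sham libraries. Ccr10 had 1.03, 0.76 and 1.12 FPKM in SCI libraries, against 1.43, 0.79 and 0.99 FPKM in sham libraries, with overlapping groups (log2 change −0.06, adjusted p = 0.77, limma), and it lies across Cntnap1 on the opposite strand.

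The lymphoid chemokines that act on Ccr7 did not pass the threshold. Ccl19 had 0.56, 0.36 and 1.21 FPKM in SCI libraries, against 1.43, 0.46 and 1.37 FPKM in sham libraries (log2 change −0.28). Its neighbours Ccl21b (log2 change −0.29) and Ccl21d (−0.26), near-identical copies whose reads may be split, ranged from 1.02 to 1.88 FPKM in SCI and from 1.26 to 2.52 FPKM in sham libraries. Ccl25, a ligand of Ccr9, had 2.46, 2.02 and 2.13 FPKM in SCI libraries, against 2.12, 3.00 and 1.83 FPKM in sham libraries (log2 change −0.04), and overlaps Elavl1 on the opposite strand. Ccl17, a ligand of Ccr4 made by dendritic cells, had 1.32, 0 and 0.45 FPKM in SCI libraries, against 0.86, 1.18 and 1.22 FPKM in sham libraries. The groups overlapped in all of these genes. Ccl17 had a log2 change of −0.47 and passed only without SCI replicate 1 (log2 change −0.79, adjusted p = 0.030, limma).

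Of the remaining atypical receptors, Ackr1, which on venules and red cells binds inflammatory chemokines, was the most abundant receptor in sham cord. It had 46.8, 32.3 and 64.2 FPKM in SCI libraries, against 50.2, 48.1 and 50.6 FPKM in sham libraries. The SCI libraries lay on both sides of the sham libraries (log2 change −0.11, adjusted p = 0.70, limma), and the sign turned without SCI replicate 2 (0.14). Its interval overlaps Cadm3 on the same strand, a neuronal adhesion gene with 55.6, 43.9 and 60.5 FPKM in SCI libraries and 109.8, 106 and 105 FPKM in sham libraries, so reads of the overlap cannot be told apart. Ccrl2, a receptor that binds chemerin and does not signal, had 2.55, 5.97 and 3.03 FPKM in SCI libraries, against 0.73, 1.96 and 1.43 FPKM in sham libraries. It was called higher (log2 change 1.00, SE 0.30, adjusted p = 0.024, limma), but not with all genes kept (adjusted p = 0.065). The call was also lost when sham replicate 1 was left out (log2 change 0.79, adjusted p = 0.074) and when sham replicate 3 was (adjusted p = 0.055).

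The 25 members under the level tested were 11 ligands, at 0 to 1.38 FPKM in SCI and 0 to 1.20 FPKM in sham libraries, and 14 receptors, at 0 to 3.87 FPKM in SCI and 0 to 0.48 FPKM in sham libraries. Only Ccr7 and Ackr4 among them passed when the level was lowered to 0.5 FPKM, where 24.7% of 19716 genes were called higher and 27.9% lower. Both reached 0.5 FPKM in SCI libraries alone, and so had to be high there to be tested. Ccr7, the receptor that takes dendritic cells and lymphocytes to lymph nodes, had 1.15, 1.37 and 0.55 FPKM in SCI libraries, against 0, 0.05 and 0.07 FPKM in sham libraries (log2 change 0.94, adjusted p = 0.0053, limma). Ackr4, which removes Ccl19, Ccl21 and Ccl25, had 1.87, 3.87 and 0.82 FPKM in SCI libraries, against 0.28, 0.23 and 0.23 FPKM in sham libraries (log2 change 1.24, adjusted p = 0.016, limma), and overlaps Acad11 on the opposite strand. Both were higher in every SCI library than in any sham library. With all genes kept, the B cell attractant Cxcl13 (log2 change 0.37, adjusted p = 0.034) and Xcr1, a receptor of cross-presenting dendritic cells (0.26, adjusted p = 0.045), were also called higher, and its ligand Xcl1 lower (−0.43, adjusted p = 0.036). In that fit, 14.2% of 33526 genes were called higher and 14.5% lower. Cxcl13, Xcr1 and Xcl1 were at or under 0.58 FPKM in every library. Xcl1 also overlaps Gm20743 on the opposite strand, which had 0.73 to 0.82 FPKM in SCI and 1.06 to 1.48 FPKM in sham libraries. The pseudogene rows were not called: Ccl19-ps1 was not tested and Ccl19-ps3 had a log2 change of −0.42.

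**Figure D3:**
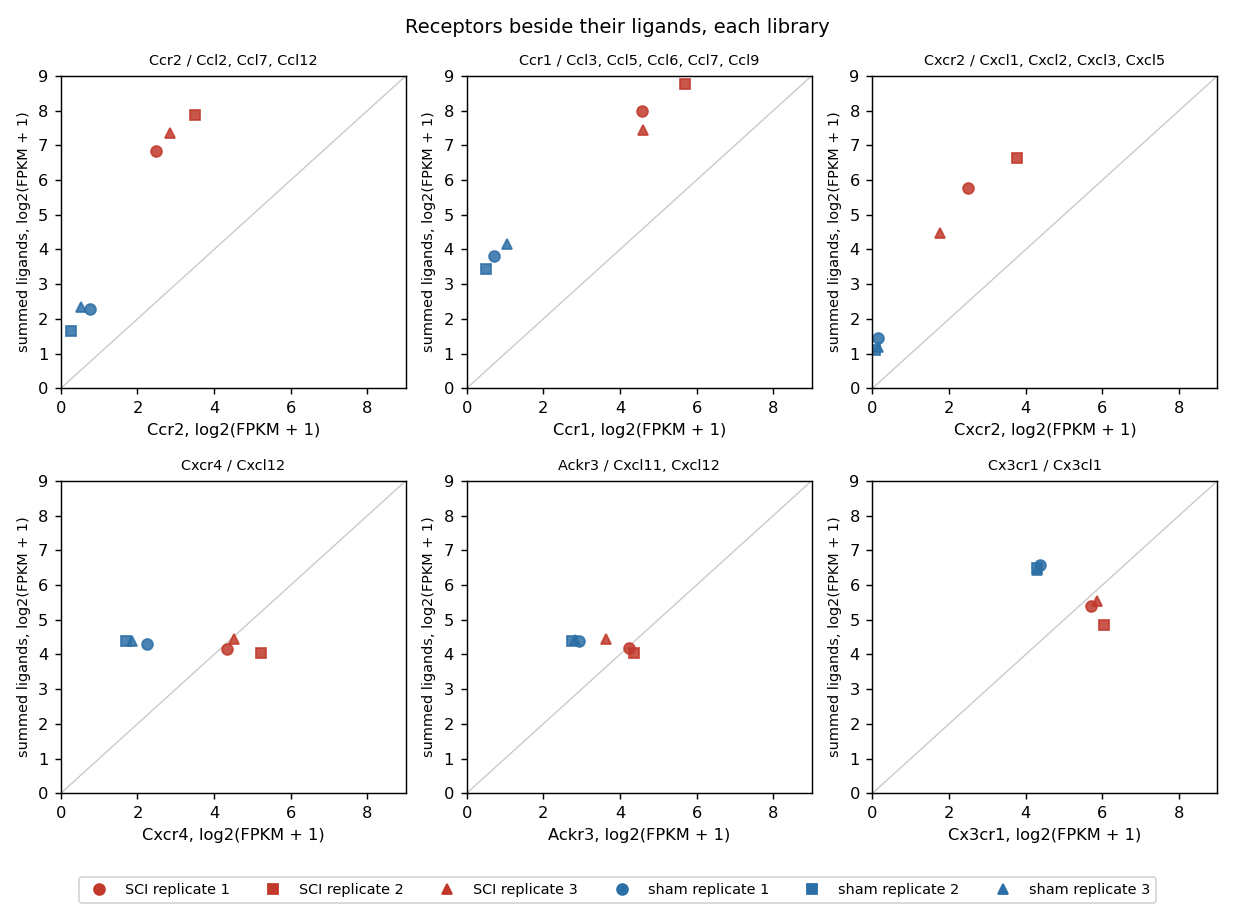
Receptors (horizontal axis) against the summed level of their ligands (vertical axis) in each library, both as log2(FPKM + 1), with the line of equal levels in grey, SCI in red and sham in blue. For Ccr2, Ccr1 and Cxcr2 the SCI points lie above and to the right of the sham points. For Cxcr4 and Ackr3 they lie to the right, and for Cx3cr1 to the right and below.

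Known pairings numbered 59 with both genes among the rows, of which 25 had both genes tested and 13 had both called higher. Of all single genes tested, 26.7% were called higher. A gene can stand in several pairings, as Ccl7 does with Ccr1 and Ccr2. Ccr1, Ccr2, Cxcr2 and most of their ligands called higher reached 1 FPKM in all SCI but not in all sham libraries. Each of those had to be high in SCI to be tested, so a shared direction was largely set by the filter. In SCI libraries the Ccr1 ligands Ccl3, Ccl5, Ccl6, Ccl7 and Ccl9 had the highest sum of the pairings plotted, at 251, 438 and 172 FPKM. In sham libraries they summed to 13.1, 9.92 and 16.9 FPKM, below Cx3cl1 at 94.2, 88.0 and 85.9 FPKM. Pairs of Cxcl12 and Cx3cl1 with their receptors did not share a direction, as given above. Pairings are textbook assignments and were not tested as pairs.

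**Figure D4:**
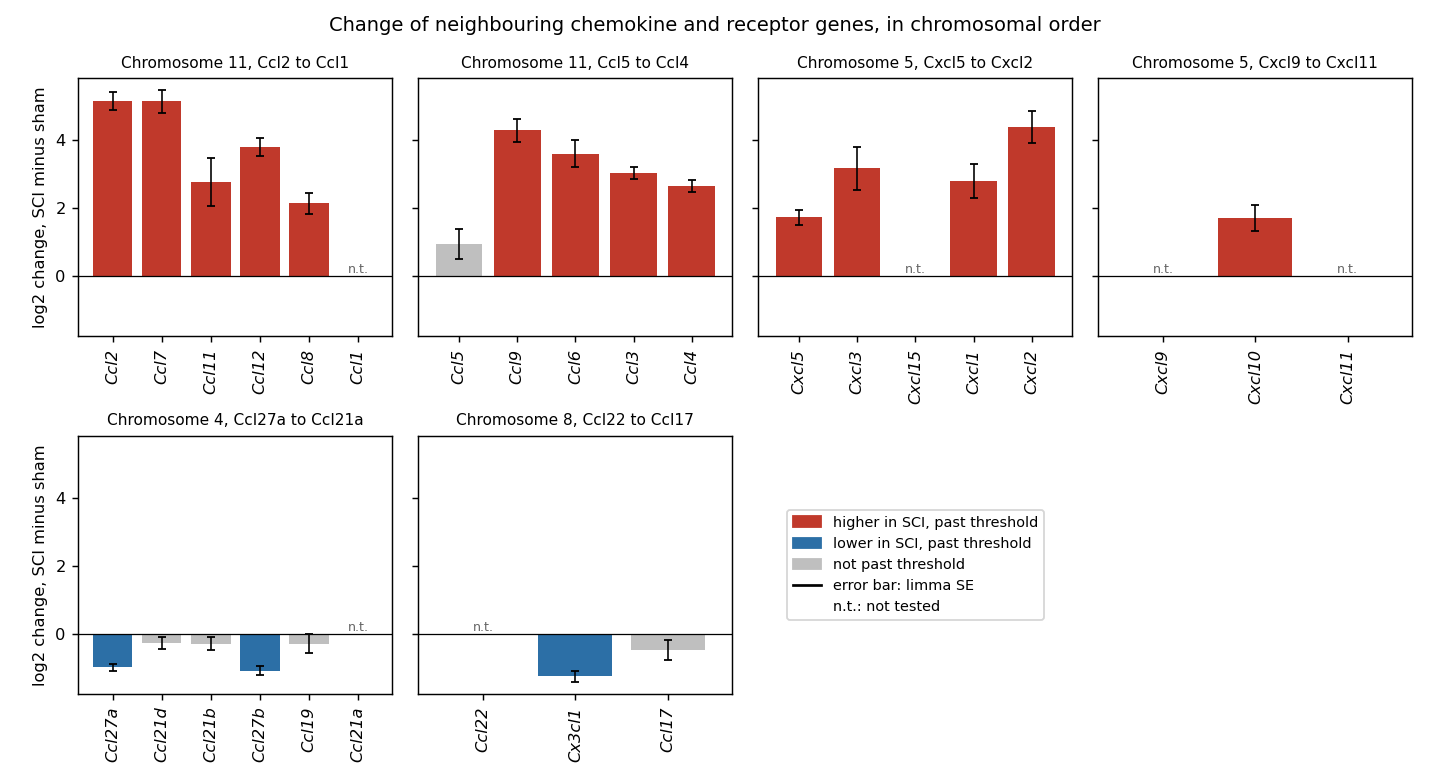
Log2 change (SCI minus sham, bars from 0, error bars the limma SE) of members that are neighbours on a chromosome, in gene order, red where called higher, blue where called lower and grey where not past the threshold, with n.t. for genes not tested. Tested neighbours on chromosome 11 lie above 0, those on chromosome 4 below 0, and Cx3cl1 lies below 0 beside Ccl17.

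The ligands called higher lay largely in 3 stretches of the genome, given here in GRCm38 coordinates. On chromosome 11, 5 of the 6 genes from Ccl2 to Ccl1 (chr11:82035571-82305690) were called higher, and Ccl1, at most 0.05 FPKM in any library, was not tested. Farther along the chromosome, 4 of the 5 genes from Ccl5 to Ccl4 (chr11:83525778-83664683) were called higher, Ccl5 being the exception. On chromosome 5, 4 of the 5 genes from Cxcl5 to Cxcl2 (chr5:90759360-90905938) were called higher, and Cxcl15 was not tested. Within the same chromosome, the stretch from Cxcl9 to Cxcl11 (chr5:92321347-92365485) had 1 of 3 called higher, and Cxcl9 and Cxcl11 were not tested. Of the 6 genes from Ccl27a to Ccl21a on chromosome 4, 2 were lower and none was higher, and Ccl21a was not tested. The shares of all genes tested were 26.7% called higher and 30.8% called lower. Most of the genes called higher in these stretches reached 1 FPKM in all SCI but not in all sham libraries. Each of those had to be high in SCI to be tested, so their shared direction was largely set by the filter.

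The members called higher differed among themselves in how evenly the SCI libraries held them. SCI replicate 2 was the highest SCI library in 19 of the 24, which is 79.2%, against 60.2% of all 4653 genes called higher. SCI replicate 3 was the lowest in 9 of the 24, against 2476 of all 4653 genes called higher. The 5 not highest in replicate 2 were Ccl3, Ccl4, Ccl8, Ccl12 and Cxcl10, of which 4 were highest in replicate 3 and Ccl3 in replicate 1.

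**Figure D5:**
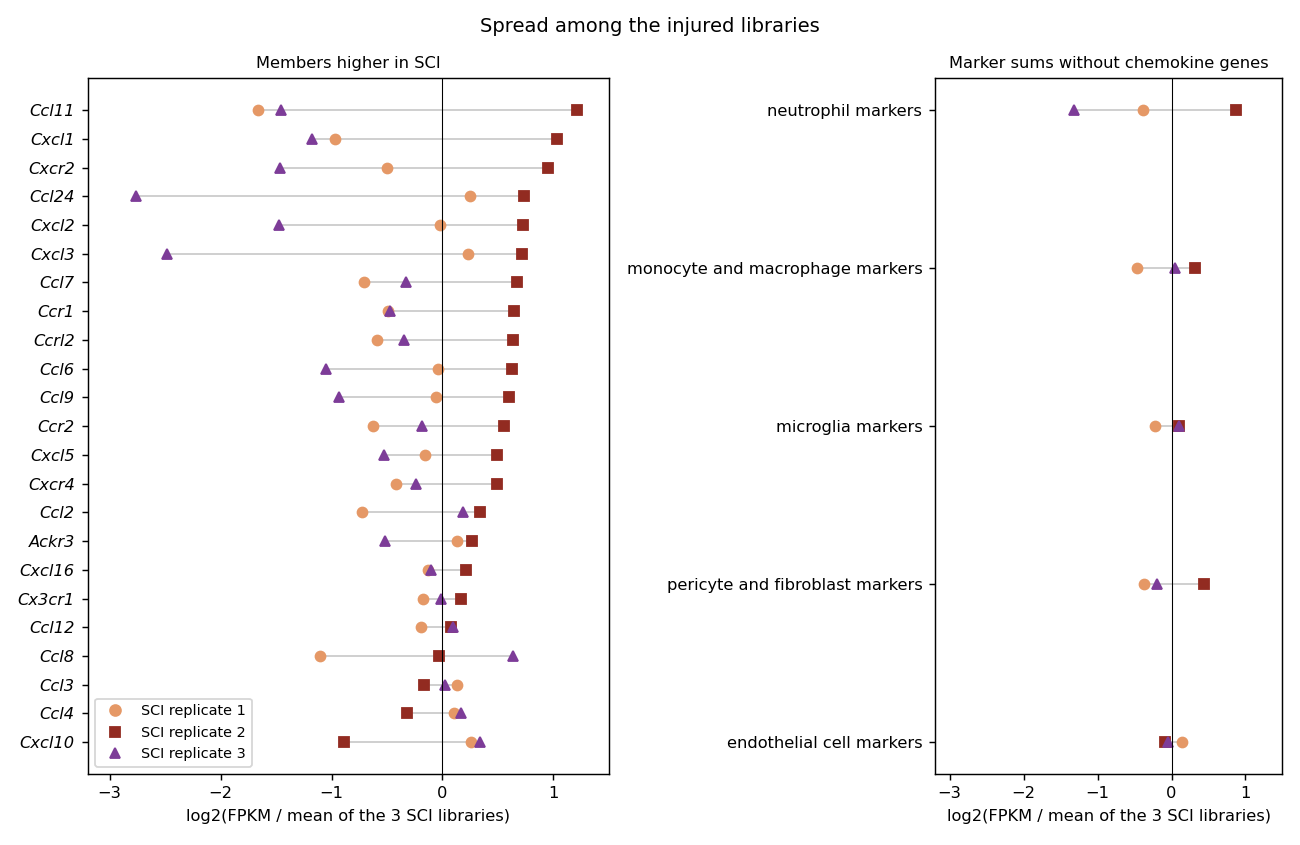
Spread of the 3 SCI libraries around their mean, as log2 of FPKM over that mean, for members called higher (left) and for summed cell type markers without chemokine genes (right), with 1 marker shape per library. Replicate 2 is the highest in all members shown except Ccl3, Ccl4, Ccl8, Ccl12 and Cxcl10. It is also the highest in all marker sums shown except that of endothelial cells, though nearly level with replicate 3 for microglia. Replicate 3 is far below the others for Ccl24 and Cxcl3.

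Genes that act with the family were described from lists chosen with earlier results of these data known, and each count stands beside the 26.7% of all genes tested that were called higher and the 30.8% called lower. Of 5 tested chemokines outside the name rule, 2 were called higher and none lower, with a median log2 change of 0.41 beside −0.08 over all genes. Pf4, a platelet chemokine also called Cxcl4, had 234, 350 and 110.1 FPKM in SCI libraries, against 5.49, 1.98 and 2.47 FPKM in sham libraries (log2 change 5.69, limma). Ppbp, the platelet precursor of neutrophil-activating peptide, had 40.1, 45.7 and 4.63 FPKM in SCI libraries, against 1.92, 0.29 and 0 FPKM in sham libraries (log2 change 3.83, adjusted p = 0.0059, limma). Both were lowest among SCI libraries in replicate 3, and the log2 change of Ppbp was 4.82 without it. Mif, a cytokine that binds Cxcr2, Cxcr4 and Cd74, had a log2 change of 0.03 (adjusted p = 0.81, limma).

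Of 6 tested receptors and co-receptors outside the name rule, 5 were called higher (median log2 change 1.34). The largest changes were in Gpr35 (log2 change 2.60) and in the chemerin receptor Cmklr1 (2.21), which averaged 14.8 ± 2.51 FPKM in SCI and 2.42 ± 0.454 FPKM in sham cord (SD, n = 3 each). Cd74, the Mif receptor and invariant chain, averaged 40.2 ± 11.9 FPKM in SCI and 24 ± 11.7 FPKM in sham cord and did not pass (log2 change 0.83, adjusted p = 0.12, limma). Of 32 genes of chemokine receptor signalling, 25 were called higher and 6 lower (median 1.04), beside 26.7% and 30.8% of all genes. Vav1 (log2 change 2.97) and Rac2 (2.93), a guanine exchange factor and a GTPase of blood cells, changed most. Gnai2, the inhibitory G protein subunit of leukocyte chemokine receptors, averaged 229 ± 8.43 FPKM in SCI and 114 ± 7.75 FPKM in sham cord (SD, n = 3 each; log2 change 1.01). Rac1 had a log2 change of 0.26 (adjusted p = 0.018, limma), and lost its call without SCI replicate 1 or 3 or any sham library.

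Among 7 tested proteases that release or trim chemokines, 5 were called higher and none lower (median log2 change 1.07), beside 26.7% and 30.8% of all genes. Mmp8, the neutrophil collagenase, had a log2 change of 2.78, and Mmp14, a membrane-bound metalloproteinase, of 2.28. Of 10 proteins whose glycosaminoglycan chains can hold chemokines, 8 were called higher and 1 lower (median 1.3), led by Cd44 (log2 change 3.50) and serglycin, Srgn (3.27). The syndecans Sdc3 (0.88) and Sdc4 (1.15) had the highest mean levels of the list over all 6 libraries, averaging 220.0 ± 9.30 and 198 ± 19.2 FPKM in SCI and 119 ± 7.02 and 88.9 ± 12.4 FPKM in sham cord (SD, n = 3 each). Of 20 tested inducers and regulators of chemokine genes, the NF-kB inhibitor Nfkbia among them, 18 were called higher and 1 lower (median 1.29). Il1b averaged 15.5 ± 11.3 FPKM in SCI and 0.503 ± 0.106 FPKM in sham cord (SD, n = 3 each; log2 change 3.25), and Il6 had a log2 change of 2.74, which was 2.10 when SCI replicate 2 was left out and 3.33 when SCI replicate 3 was. The NF-kB inhibitor Nfkbia (log2 change 1.3) and the hypoxia factor Hif1a (1.25) had the highest mean levels of the list over all 6 libraries and were called higher.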

How the data were processed

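The FPKM values were used as the authors deposited them, 1 table per library. Named without roles or order in the submitters' processing notes are StringTie 1.3.4d, HISAT2 2.0.4, cutadapt 1.9, UMI-tools, edgeR, DESeq2 and the build mm9. The file coordinates equal those of GENCODE M21 (GRCm38) for 33448 of 36502 shared gene IDs and for 57 of 64 member rows, so GRCm38 is given here. FPKM are no counts, and comparing low values between libraries did not give relative depth: the fullest bin of ratios held 4.49% to 5.45% of 2387 to 2513 low genes. Depth, and so counting intervals, are unknown.

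SCI and sham (n = 3 each) were compared with limma 3.58.1 in R 4.3.3 (moderated, with a mean trend) on log2(FPKM + 1), over genes that reached 1 FPKM in 3 or more libraries, group as the only term. P-values were adjusted by the Benjamini-Hochberg method over all genes tested, with a threshold of 0.05. The fit was tested on simulated data. Members, lists and motifs were chosen with earlier results of these data known. Tested members are named, with untested partners, except 1 that is counted but not reported here. From each pathway list, the text names 2 called genes by size of change and 2 by abundance. Ifng, Csrnp1, Cadm3, Art3, Cntnap1, Elavl1, Acad11, Il11ra1, Gm20743, Scn10a, Lyz2 and the T cell markers were named after their values were seen. Promoter windows are from RefSeq (GRCm38.p6), matched by symbol. Alternatives were another pseudocount, filters, scalings, no trend, a replicate block and leaving out each library. Scalings and left-out fits kept the 17435 genes tested.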

Additional observations from a re-analysis of the deposited data

How the results depend on the processing

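Of the 27 members called, 26 kept their direction and call in all 14 alternatives, the exception being Ccrl2, as given above. Leaving out 1 library gave 16 to 17 ligands higher, 3 to 4 lower, 7 to 8 receptors higher and 0 lower, and for all genes 4067 to 4709 higher and 4136 to 5222 lower. Quantile normalization gave 4381 genes higher and 6364 lower, and median-ratio scaling 5268 and 4942, with the member counts as reported. A pseudocount of 0.1 widened the fitted log2 changes of genes that were low in either group, to 6.40 for Ccl2, 5.95 for Ccl7, 6.08 for Cxcl2, 5.28 for Ccr1, 4.24 for Ccl3, 5.08 for Il6, 4.61 for Cxcl1, 5.52 for Cxcl3, 4.76 for Ccl24, 4.86 for Cxcr2 3.71 for Ccr2 and −1.66 for Ccl27b, without a change of call. Sign changes were limited to genes that did not pass. Ccl25 had log2 changes of 0.017 with median-ratio scaling, 0.004 without SCI replicate 2 and 0.106 without sham replicate 2. Ackr1 had 0.142 without SCI replicate 2. Ccr10 had 0.015 without SCI replicate 2 and 0.057 without sham replicate 1. Mif had −0.011 with quantile normalization, −0.041 without SCI replicate 1 and −0.021 without sham replicate 3. Over the left-out libraries, these ranged up from −0.144 for Ccl25, −0.344 for Ackr1 and −0.163 for Ccr10, and up to 0.072 for Mif. The cause was not tested. Same-numbered libraries did not deviate together (correlations −0.01, −0.04 and 0.02). No shared effect of the number was seen, which cannot exclude that the libraries were paired. With the replicate number as a block, 16 ligands were higher and 3 lower, 8 receptors were higher and 0 lower, and of all genes 4398 were higher and 5045 lower. With 3 libraries a group and depth unknown, members near 0 FPKM could not be compared.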
